A study of Homo sapiens with 10 samples.

Results

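The MAGE genes MAGEA1, MAGEA2, MAGEA3, MAGEA4, MAGEA6, MAGEA10, MAGEA12, MAGEC1 and MAGEC2 and the tumour antigen gene PRAME were followed through RNA-Seq of 3 human hepatocellular carcinoma cell lines. They were 10 of the 58302 genes listed in each library. The set was chosen because MAGEA3 rose most of all genes in SK-hep1 cells with PSPC1-Y523F, so the values of that comparison are a description and were not tested. The libraries numbered 10, with 1 library per condition. In SK-hep1 (SK-Hep1 in the labels) they were a mock control, cells overexpressing PSPC1, cells overexpressing PSPC1 and the kinase PTK6 (PSPC1/PTK6), cells overexpressing the PSPC1-Y523F mutant (the YF mutation of the labels, in which a tyrosine is replaced by phenylalanine) and cells overexpressing this mutant and PTK6 (PSPC1-Y523F/PTK6). In Mahlavu they were a mock control, cells labelled as overexpressing PSPC1-CT131, a fragment from the C-terminus of PSPC1, and cells labelled as overexpressing Mut-NLS-CT131, which the labels call an NLS mutation of PSPC1 and the plasmid methods name as a mutant of the same fragment. In Huh-7 they were untreated cells and cells given the growth factor HGF at 10 ng/ml for 48 h. The methods name stable clones for the animal experiments and do not say whether the sequenced cells were clones or pools. With 1 library per condition there is no replicate spread, no p-value is given, and all intervals are 95% intervals that cover counting error only. Fewer expressing cells and less RNA per cell cannot be told apart in such bulk RNA.

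PSPC1 is an RNA-binding protein of nuclear paraspeckles. The type I MAGE genes lie on the X chromosome and are normally transcribed in the germ line, where their promoters are unmethylated, and are silent in most other adult tissues. In many tumours they are transcribed again after their CpG-rich promoters lose methylation, and their proteins, which bind RING ubiquitin ligases through the MAGE homology domain, are presented to T cells as tumour antigens. PRAME lies on chromosome 22, encodes a leucine-rich repeat protein that serves as a substrate receptor of cullin ubiquitin ligases and was described as a repressor of retinoic acid receptor signalling.

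The start regions of the MAGE genes printed below share a short element. It is given to show where those of the high and the silent members are alike and where they differ. RefSeq start windows of 300 bases (250 before and 50 after a start, GRCh38.p14) were found for 8 of the 10 members, with no entry for MAGEA1 and MAGEA10. Each line below holds 30 bases on the strand of the gene, 5′ to 3′, aligned on the letters GGATGT. Capitals mark the motifs GGATGTGA and CCGGATGT, which overlap by these letters and hold the GGA core that ETS factors bind. The MAGEC1 window held 2 copies of CCGGATGT, and its line holds only the first of them whole.
MAGEA3, chrX:152698696-152698725, plus strand: gtaccgttgccaGGATGTGAcgccactgac
MAGEA6, chrX:152769758-152769787, minus strand: gtaccgttgccaGGATGTGAcgccactgac
MAGEA2, chrX:152753885-152753914, minus strand: agtcacgggcCCGGATGTGAcgccactgac
MAGEA12, chrX:152733733-152733762, plus strand: agtcacggggCCGGATGTGAcgccactgac
MAGEA4, chrX:151912442-151912471, plus strand: cccaggtggcCCGGATGTGAcatccctgac
MAGEC1, chrX:141903838-141903867, plus strand: gacagagttcCCGGATGTgctttgccggat
MAGEC2, chrX:142205279-142205308, minus strand: ggcagggttcCCGGATGTgctttcccgacg

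The MAGEA3 and MAGEA6 start windows differed at 0 of 300 bases. The printed bases of MAGEA2 and MAGEA12 were the same at 29 of 30 positions, and those of MAGEC1 and MAGEC2 at 24 of 30. Other pairs were less alike. MAGEA3 matched MAGEA2 at 22, MAGEA12 at 21, MAGEA4 at 20 and MAGEC1 and MAGEC2 at 14 each, counting the aligned letters. The GGATGT letters lay 86 bases before the RefSeq start of both MAGEA3 and MAGEA6, 18 bases before the first listed start of MAGEA2, 12 before that of MAGEA12, 20 before that of MAGEA4, 44 before that of MAGEC1 and 6 before that of MAGEC2. At least 1 of the 2 motifs was found in 7 of the 8 members with a window, and in 1.74% of all 35116 windows searched on both strands. With or without the other motif, GGATGTGA was in 1.16% of these windows and CCGGATGT in 0.701%. A member counted if any of its windows held a motif, while these shares are per window. Nothing is read from the member count, since the motifs are letters these MAGE lines share and several lines are nearly the same. None of the 3 PRAME windows held either motif. The windows of MAGEA3 and MAGEA6 held 19 CpG each, against a median of 14 over all windows. Over their listed starts, the others held 13 and 17 (MAGEA2), 10 to 15 (MAGEA4), 9 and 15 (MAGEA12), 14 (MAGEC1), 10 (MAGEC2) and 4 to 13 (PRAME).

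The reads on genes ranged from 15245935 to 24278662 per library, so 3 reads, taken as the limit that a count of 0 allows, stood for 0.0462 to 0.149 FPKM in the members with a recovered length. FPKM are reads scaled for gene length and library total. PSPC1 had 0 reads in SK-hep1 mock and 209, 930, 71 and 2539 reads with PSPC1, with PSPC1/PTK6, with PSPC1-Y523F and with PSPC1-Y523F/PTK6. PTK6 was at 4.79 FPKM in SK-hep1 mock and at 16.7 and 10.5 FPKM where it was added to PSPC1 and to PSPC1-Y523F. In Mahlavu mock PSPC1 was at 47.3 FPKM, and it was at 30.8 and 22.5 FPKM in the libraries labelled PSPC1-CT131 and Mut-NLS-CT131. PSPC1 RNA was thus below mock in both, not above it. A value over the whole gene does not separate the labelled fragment from the PSPC1 of the cells themselves. It cannot show whether the fragment was overexpressed. The paper reports that PSPC1-CT131, but not its NLS mutant, lowered PSPC1 in Western blots of Mahlavu cells. Each direction given for PSPC1-CT131 or Mut-NLS-CT131 is that of the library so labelled. Of 10 hepatocyte markers, 5 were at 0 in all SK-hep1 libraries and 6 in all Mahlavu libraries, ALB among them, whereas all 10 exceeded 1 FPKM in both Huh-7 libraries. Germ cell markers summed to at most 0.0850 FPKM in any SK-hep1 library, where 7 of 8 were at 0, 0.261 in Mahlavu, where 5 were, and 0.917 in Huh-7, where 3 were. Endothelial markers (8 genes) summed to 0.924 FPKM in SK-hep1 mock and at most 2.02 in the transfectants, with KDR and EMCN at 0, and to 2.06 to 3.09 in Mahlavu. Fibroblast markers (6 genes, none at 0) ranged from 102 to 341 FPKM in SK-hep1 and 39.7 to 55.5 in Mahlavu. Leukocyte markers (5 genes, CD3E at 0) ranged from 6.07 to 18.3 FPKM in SK-hep1, nearly all of it CD14, which was 18.3 in mock and 6.07, 9.90, 6.69 and 16.6 FPKM in the transfectants in the order given, and from 7.26 to 10.4 in Mahlavu. The part of such cells or of CD14 in the MAGEA3 values was not tested.

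The members divided the 3 lines into 3 patterns. Mahlavu libraries held 8 members above 0.5 FPKM in each library, led by MAGEA3 and MAGEA6. SK-hep1 libraries held PRAME at 70.1 to 111 FPKM and little MAGE RNA in the mock control, with MAGEA3 at 34.4 FPKM or more in the 4 transfectants and MAGEA6 at 32.8 FPKM in 1 of them. Huh-7 held PRAME alone, with 0 reads for 8 MAGE genes and 1 read for MAGEA12 in the HGF library. MAGEA4, whose protein is a target of T cell therapies, had 0 FPKM in all 10 libraries. Its start windows hold the same motifs as those of MAGEA12 and of MAGEA2, which was also low in all libraries. The part of the motifs in these levels was not tested.

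**Figure D1:**
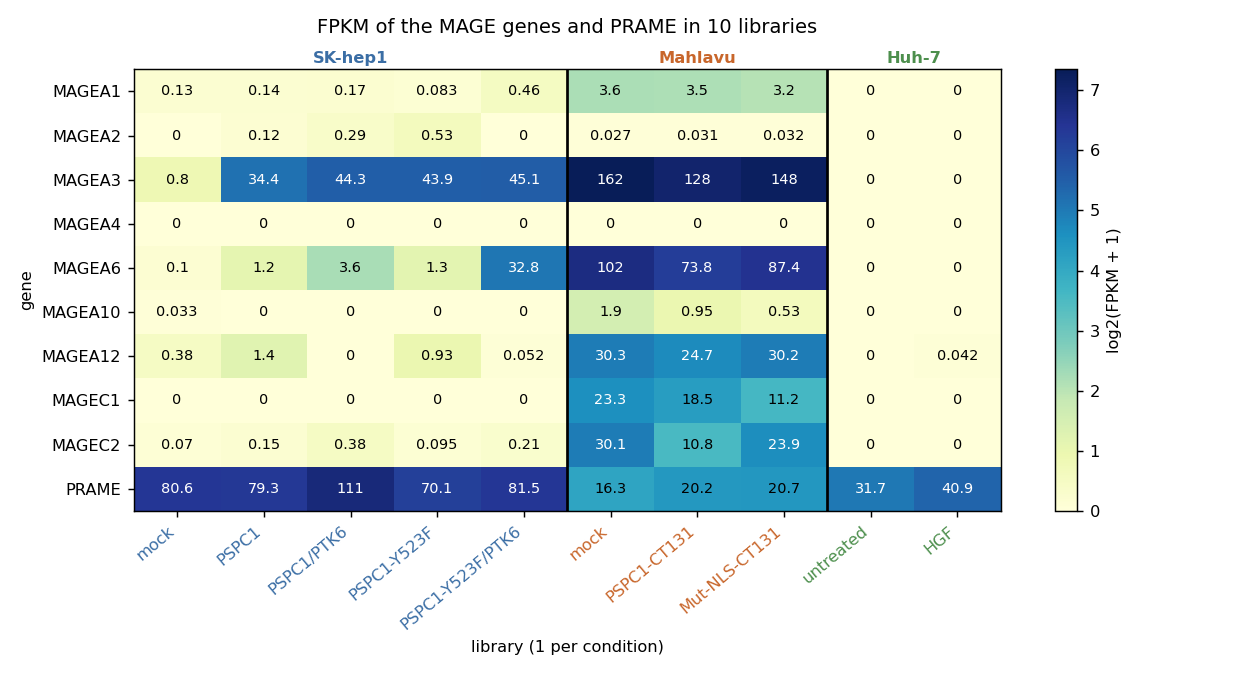
FPKM as deposited of the 10 members (rows) in the 10 libraries (columns, 1 per condition, grouped by cell line), with colour giving log2(FPKM + 1) and the FPKM printed in each cell. MAGEA3 is at 0.798 FPKM in SK-hep1 mock, at 34.4 to 45.1 FPKM in the other SK-hep1 libraries, at 128 to 162 FPKM in Mahlavu and at 0 in Huh-7.

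MAGEA3 (ENSG00000221867, chromosome X, 152698752 to 152702347, plus strand, GRCh38), whose protein joins the ubiquitin ligase TRIM28, was read 25 times in SK-hep1 mock, and 1006, 1531, 1340 and 1582 times with PSPC1, with PSPC1/PTK6, with PSPC1-Y523F and with PSPC1-Y523F/PTK6. These reads gave 0.798 FPKM (0.540 to 1.18) in mock and 34.4 (32.3 to 36.6), 44.3 (42.2 to 46.6), 43.9 (41.7 to 46.4) and 45.1 FPKM (42.9 to 47.3) in the transfectants. The mock library alone was low, and all of its contrasts share it. Per library total, the ratio to mock was 43.1 (29.05 to 67.0) with PSPC1, 55.6 (37.5 to 86.2) with PSPC1/PTK6, 55.1 (37.2 to 85.5) with PSPC1-Y523F and 56.5 (38.1 to 87.6) with PSPC1-Y523F/PTK6.

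The 4 transfectants differed from each other far less than each did from mock. MAGEA3 was 1.28-fold higher with PSPC1-Y523F than with PSPC1 (1.18 to 1.39), 1.29-fold higher with PSPC1/PTK6 than with PSPC1 (1.19 to 1.40), and at a ratio of 1.03 between PSPC1-Y523F/PTK6 and PSPC1-Y523F (0.953 to 1.10). In the last pair the log2 difference was 0.08 after quantile normalization and ran from -0.01 to 0.15 over the scalings tried, so its direction is not settled. PSPC1 RNA itself ranged from 71 to 2539 reads over these transfectants, and MAGEA3 had 1340 and 1582 reads in the libraries at those ends. Mock had 0 PSPC1 reads and 25 MAGEA3 reads. The libraries at those ends also differ in added PTK6, and a relation of MAGEA3 to the amount of PSPC1 RNA was not tested.

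On the log2 scale of quantile-normalized FPKM + 1, MAGEA3 differed from mock by 4.18 with PSPC1, 4.41 with PSPC1/PTK6, 4.503 with PSPC1-Y523F and 4.59 with PSPC1-Y523F/PTK6. Ordered from the largest increase among genes whose mean over both libraries reached 1 FPKM, it was number 9 of 12410, 5 of 12436, 1 of 12382 (the contrast that chose it) and 11 of 12412. In Mahlavu MAGEA3 was the highest member, at 162 FPKM (158 to 166) in mock, 128 (124 to 132) with PSPC1-CT131 and 148 (143 to 152) with Mut-NLS-CT131, above 96.3%, 94.2% and 95.3% of the genes with reads. Huh-7 had 0 MAGEA3 reads in both libraries. The limit of 3 reads stands for 0.127 FPKM without HGF and 0.136 FPKM with it. The upper ends of the 95% intervals were 0.162 and 0.174 FPKM.

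MAGEA6 (ENSG00000197172, chromosome X, 152766136 to 152769747, minus strand), a close relative of MAGEA3 that also binds TRIM28, was read 3, 31, 115, 35 and 1052 times in SK-hep1 mock, with PSPC1, with PSPC1/PTK6, with PSPC1-Y523F and with PSPC1-Y523F/PTK6. Its levels were 0.105, 1.16, 3.65, 1.26 and 32.8 FPKM, so the library with the mutant and PTK6 stood apart. Its ratio to mock, which rests on 3 mock reads, was 11.1 (3.46 to 56.6) with PSPC1, 34.8 (11.6 to 171) with PSPC1/PTK6, 11.99 (3.78 to 60.9) with PSPC1-Y523F and 313 (107 to 1521) with PSPC1-Y523F/PTK6. Against the other transfectants it was 26.1-fold higher with PSPC1-Y523F/PTK6 than with PSPC1-Y523F (18.7 to 37.7) and 8.996-fold higher than with PSPC1/PTK6 (7.42 to 11.0). PSPC1/PTK6 exceeded PSPC1 by 3.14-fold (2.10 to 4.84), and PSPC1-Y523F and PSPC1 were at a ratio of 1.08 (0.648 to 1.82), which counting error alone spans. In Mahlavu MAGEA6 was at 102, 73.8 and 87.4 FPKM in mock, PSPC1-CT131 and Mut-NLS-CT131, and in Huh-7 it had 0 reads.

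MAGEA3 and MAGEA6 are so alike that a read can match both, and whether such reads were split between them or left uncounted was not tested. Their GENCODE transcripts have 1762 bases each and differ at 25 of them, and 27.9% of windows of 150 bases, or 36.1% of windows of 100 bases, occur in both. The values of either gene are uncertain for this reason. These shares do not measure the error of the counts, and its size was not tested. The MAGEA6 share of the reads of both genes was 10.7% (2.27 to 28.2, exact Clopper-Pearson) in SK-hep1 mock, 2.99% (2.04 to 4.22) with PSPC1, 6.99% (5.80 to 8.33) with PSPC1/PTK6, 2.55% (1.78 to 3.52) with PSPC1-Y523F and 39.9% (38.1 to 41.8) with PSPC1-Y523F/PTK6. It was 36.6% (35.5 to 37.6), 34.5% (33.2 to 35.7) and 35.1% (33.9 to 36.3) in the 3 Mahlavu libraries. The share with PSPC1-Y523F/PTK6 did not overlap that of any other SK-hep1 library. Summed over both genes, the FPKM were 0.902, 35.6, 48.0, 45.2 and 77.9 in the SK-hep1 libraries in the order above and 264, 202 and 235 in Mahlavu.

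**Figure D2:**
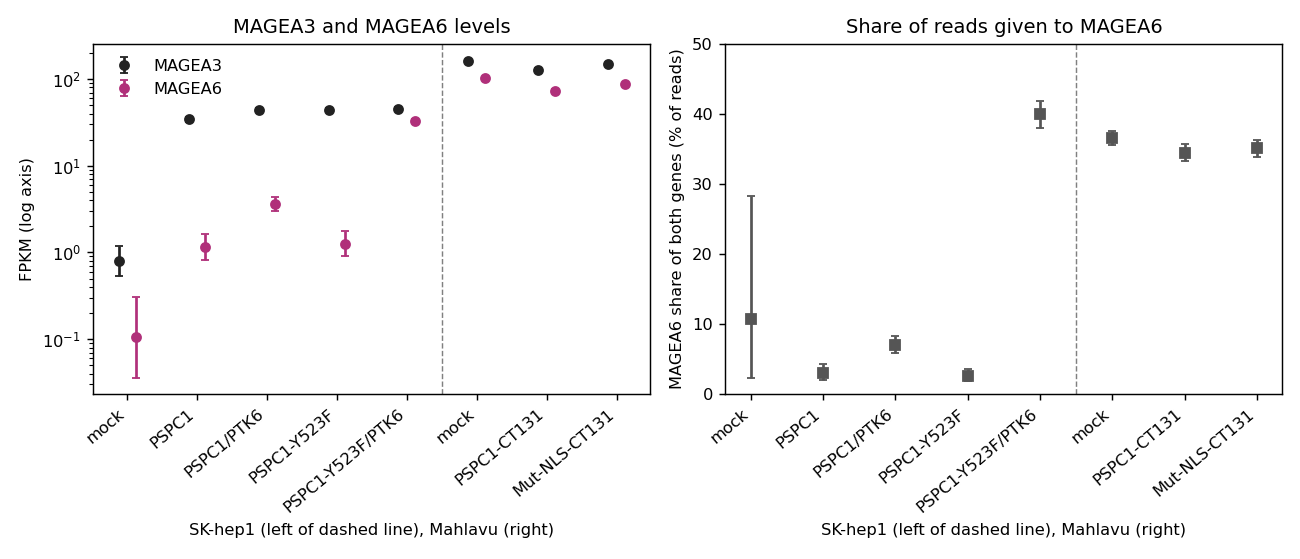
Left, FPKM of MAGEA3 and MAGEA6 on a log axis in the 8 SK-hep1 and Mahlavu libraries, with 95% Wilson intervals. Right, the MAGEA6 share of the reads of both genes in percent, with exact 95% binomial intervals. The share is 2.55% with PSPC1-Y523F and 39.9% with PSPC1-Y523F/PTK6 while MAGEA3 is at 43.9 and 45.1 FPKM.

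MAGEA3, MAGEA2, MAGEA12 and MAGEA6 lie within 71.0 kb of Xq28 together with the CSAG genes, further cancer-testis antigens. MAGEA12 (ENSG00000213401, chromosome X, 152733779 to 152737669, plus strand) was read 13, 43, 0, 31 and 2 times in SK-hep1 mock, with PSPC1, with PSPC1/PTK6, with PSPC1-Y523F and with PSPC1-Y523F/PTK6, and it shared 0% of its 150-base windows with another gene. Both libraries with added PTK6 were low. Taking 0 reads at the floor of 3, it was 16.9-fold lower with PSPC1/PTK6 than with PSPC1. The exact interval puts this difference at 13.2-fold or more. Its ratio was 0.0560 (0.00650 to 0.220) between PSPC1-Y523F/PTK6, with 2 reads, and PSPC1-Y523F. All of these levels were at most 1.35 FPKM, against 30.3, 24.7 and 30.2 FPKM in Mahlavu mock, PSPC1-CT131 and Mut-NLS-CT131.

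MAGEA2 (ENSG00000268606, chromosome X, 152749863 to 152753884, minus strand) was read 0, 4, 11, 18 and 0 times in the 5 SK-hep1 libraries in the same order and 1 time in each Mahlavu library. Its level is uncertain, since 97.8% of its 150-base windows occur in MAGEA2B, which was read 0, 9, 18, 18 and 0 times in SK-hep1. Neither gene of the pair had a read in mock or PSPC1-Y523F/PTK6, the library in which MAGEA6 was highest. MAGEA2 thus rested on at most 18 reads, 0.529 FPKM, in any library. Shared reads left uncounted would make this level too low, so its limits hold for counted reads only.

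CSAG1 and CSAG3 start head to head with MAGEA12 and MAGEA2, and their start windows held both motifs on the other strand. CSAG1, whose RefSeq start lies beside that of MAGEA12, was read 7, 23, 2, 28 and 0 times in the 5 SK-hep1 libraries, with 2 reads or fewer in both libraries with added PTK6. CSAG3, which starts beside MAGEA2, was at 0.969, 11.1, 16.1, 10.9 and 1.68 FPKM, on 17, 182, 311, 186 and 33 reads, and mock and PSPC1-Y523F/PTK6, the libraries without MAGEA2 reads, were its lowest. CSAG3 and CSAG2 share 78.4% of their 150-base windows. Beyond the cluster, CETN2 differed from mock by 0.56, 0.19, 0.18 and 0.31 and NSDHL by 0.35, -0.06, 0.25 and 0.66 (log2) with PSPC1, with PSPC1/PTK6, with PSPC1-Y523F and with PSPC1-Y523F/PTK6, while GABRA3, an Xq28 gene of a GABA receptor subunit, had 0, 1, 9, 5 and 162 reads in the SK-hep1 libraries and was at 12.6 to 17.1 FPKM in Mahlavu.

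**Figure D3:**
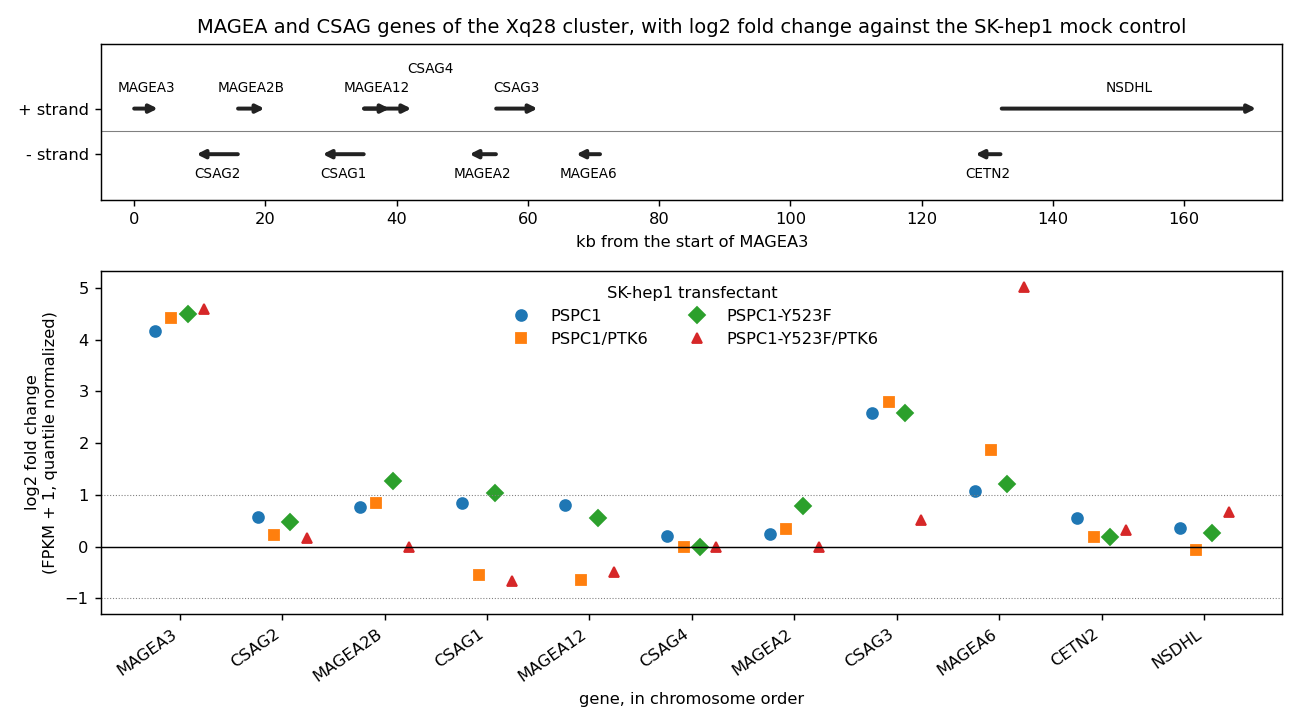
Above, genes of the Xq28 cluster by distance in kb from the start of MAGEA3, with arrows giving the direction of transcription. Below, the log2 fold change of each gene (quantile-normalized FPKM + 1) against SK-hep1 mock in the 4 transfectants, with dotted lines at changes of 2-fold. MAGEA3 is at 4.18 to 4.59 in all 4, MAGEA6 is at 5.03 with PSPC1-Y523F/PTK6, and CSAG3 is at 2.57 to 2.79 in the other 3 transfectants and 0.51 there.

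Counted over the members, few reached a mean of 1 quantile-normalized FPKM in the 2 libraries compared in SK-hep1, and against mock MAGEA6 and MAGEA12 did so only through the transfectant. PRAME was high in both libraries of every contrast, and MAGEA3 was at 1.11 quantile-normalized FPKM in SK-hep1 mock itself. Against SK-hep1 mock, 1 of the 3 members kept was at least 2-fold higher with PSPC1 (MAGEA3, beside MAGEA12 and PRAME), where 3.38% of all 12410 genes kept were, and 0 were at least 2-fold lower, where 2.19% were. With PSPC1/PTK6, 2 of 3 were higher (MAGEA3 and MAGEA6), against 5.09% of 12436 genes, and 0 lower, against 3.32%. With PSPC1-Y523F, the contrast of the choice, 1 of 2 was higher (MAGEA3), where 2.83% of 12382 genes were, and 0 lower, where 2.46% were. With PSPC1-Y523F/PTK6, 2 of 3 were higher (MAGEA3 and MAGEA6), against 3.44% of 12412 genes, and 0 lower, against 1.59%. Nothing is read from these counts of higher members. All these contrasts share the mock library in which MAGEA3 was low when the set was chosen, and MAGEA6 was kept only through the transfectant. On FPKM as deposited the median gene lay at 0.15 with PSPC1/PTK6 and -0.13 with PSPC1-Y523F/PTK6 (log2), and the shares of higher and lower genes became 8.16% and 1.96%, and 3.07% and 2.19%.

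Over all 5 SK-hep1 libraries, 3 members reached a mean of 1 FPKM, and MAGEA3 and MAGEA6 were at least 2-fold higher than mock in all 4 transfectants, where 0.586% of 12449 genes were. Nothing is read from this count, since it includes the PSPC1-Y523F contrast that chose the set and these 4 contrasts share the mock library. MAGEA6 reached that mean mainly through PSPC1-Y523F/PTK6, at 37.3 quantile-normalized FPKM against 0.174 to 3.29 in the other SK-hep1 libraries, and for MAGEA6 with PSPC1 the log2 change ran from 0.96 to 1.14 over the scalings tried, so that it crossed 2-fold. Between PSPC1-Y523F/PTK6 and PSPC1-Y523F, 1 of 3 members was at least 2-fold higher (MAGEA6, by 3.82 on the log2 scale), where 3.78% of 12398 genes were, and 0 were lower, where 2.2% were. MAGEA6 differed from mock by 1.08, 1.87, 1.21 and 5.03 (log2) with PSPC1, with PSPC1/PTK6, with PSPC1-Y523F and with PSPC1-Y523F/PTK6.

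MAGEC1 and MAGEC2 were above 10 FPKM in Mahlavu and below 1 FPKM in the other lines. MAGEC1 (ENSG00000155495, chromosome X, 141903894 to 141909388, plus strand) was read 1418, 979 and 572 times in Mahlavu mock, PSPC1-CT131 and Mut-NLS-CT131, at 23.3 (22.2 to 24.6), 18.5 (17.3 to 19.7) and 11.2 FPKM (10.3 to 12.2), and 0 times in all 5 SK-hep1 and both Huh-7 libraries. The SK-hep1 library with high MAGEA6 and GABRA3 thus held no read of MAGEC1. Mut-NLS-CT131 was lowest, at a ratio of 0.479 to mock (0.434 to 0.529).

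MAGEC2 (ENSG00000046774, chromosome X, 142202345 to 142205290, minus strand), which binds TRIM28 as MAGEA3 does, was read 1358, 425 and 907 times in the Mahlavu libraries in the same order. Its levels were 30.1 (28.5 to 31.7), 10.8 (9.80 to 11.9) and 23.9 FPKM (22.4 to 25.5), so PSPC1-CT131 was lowest for MAGEC2 where Mut-NLS-CT131 was lowest for MAGEC1. The ratio of PSPC1-CT131 to mock was 0.359 (0.321 to 0.400). Between PSPC1-CT131 and Mut-NLS-CT131, MAGEC1 was 1.65-fold higher (1.49 to 1.83) and MAGEC2 stood at 0.452 (0.402 to 0.507). In SK-hep1 MAGEC2 was read 3, 6, 18, 4 and 10 times, at most 0.379 FPKM, and in Huh-7 0 times.

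MAGEA1 (ENSG00000198681, chromosome X, 153179285 to 153183880, plus strand), the founding member of the family, was read 138, 119 and 104 times in Mahlavu, at 3.56, 3.51 and 3.19 FPKM with overlapping intervals. In SK-hep1 it was read 5, 5, 7, 3 and 19 times in mock, with PSPC1, with PSPC1/PTK6, with PSPC1-Y523F and with PSPC1-Y523F/PTK6, so its highest SK-hep1 library was the one with the highest MAGEA6. MAGEA10 (ENSG00000124260, chromosome X, 152133310 to 152138578, minus strand) was read 60, 26 and 14 times in Mahlavu mock, PSPC1-CT131 and Mut-NLS-CT131, at ratios to mock of 0.496 (0.301 to 0.799) and 0.277 (0.143 to 0.502), and 1 time in SK-hep1 mock. Of its 150-base windows, 12.4% occur in the readthrough gene that joins it to MAGEA5.

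The Mahlavu contrasts depend on scaling. On FPKM + 1 as deposited the median gene was 0.24 below mock with PSPC1-CT131 and 0.09 below with Mut-NLS-CT131 (log2 changes of -0.24 and -0.09), and after quantile normalization at 0.01 and 0.00. After that normalization MAGEA3 changed by -0.39 and -0.16, MAGEA6 by -0.43 and -0.23, MAGEC1 by -0.04 and -0.97 and MAGEC2 by -1.16 and -0.26 (log2) with PSPC1-CT131 and Mut-NLS-CT131. MAGEA12 changed by -0.05 and 0.07 and MAGEA1 by 0.40 and 0.08. The direction flipped under another scaling for MAGEA1 in both contrasts and for MAGEA3 and MAGEA12 with Mut-NLS-CT131. At least 2-fold lower with PSPC1-CT131 was 1 of the 8 members kept (MAGEC2), where 3.16% of 12415 genes were, and 0 were higher, where 3.17% were. With Mut-NLS-CT131, 0 of 7 members were at least 2-fold lower, where 3.26% of 12425 genes were, and 0 higher, where 3.16% were. On FPKM as deposited these shares of higher and lower genes were 1.49% and 7.67% with PSPC1-CT131 and 2.17% and 4.55% with Mut-NLS-CT131.

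**Figure D4:**
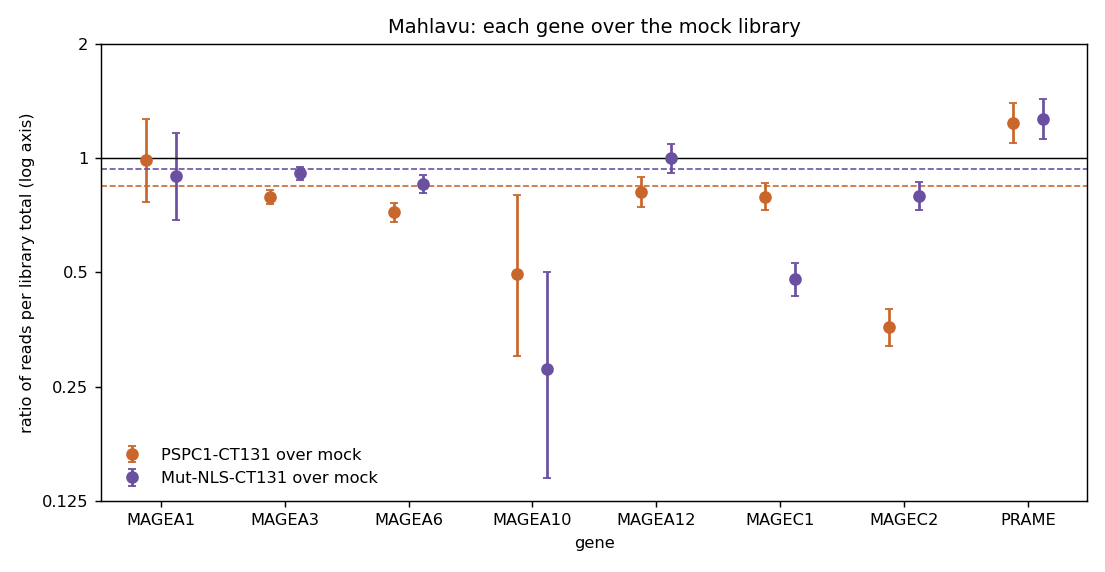
Ratio of reads per library total of PSPC1-CT131 and Mut-NLS-CT131 over Mahlavu mock for 8 members, on a log axis, with exact 95% intervals. Dashed lines give the change of the median gene on FPKM + 1 as deposited in each contrast. MAGEC2 is lowest with PSPC1-CT131 at 0.359, MAGEC1 is at 0.479 with Mut-NLS-CT131, and PRAME is above 1 in both.

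PRAME (ENSG00000185686, chromosome 22, 22547701 to 22559361, minus strand) was the only member read in all 10 libraries. In SK-hep1 it was at 80.6 FPKM (77.4 to 83.8) in mock, 79.3 (76.1 to 82.7) with PSPC1, 111 (107 to 115) with PSPC1/PTK6, 70.1 (67.1 to 73.2) with PSPC1-Y523F and 81.5 (78.5 to 84.6) with PSPC1-Y523F/PTK6. PSPC1/PTK6 was highest, 1.38-fold above mock (1.31 to 1.45), and PSPC1-Y523F was lowest, at 0.870 of mock (0.820 to 0.923). The log2 changes against mock after quantile normalization were 0.03, 0.47, -0.16 and 0.08 in this order, and the first of them flipped sign under other scalings.

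In Mahlavu PRAME was at 16.3 FPKM (14.9 to 17.7) in mock, 20.2 (18.6 to 21.9) with PSPC1-CT131 and 20.7 (18.997 to 22.4) with Mut-NLS-CT131. It was above mock in both, at ratios of 1.24 (1.10 to 1.40) and 1.27 (1.12 to 1.43). In Huh-7 it was at 31.7 FPKM (29.4 to 34.1) without HGF and 40.9 FPKM (38.2 to 43.7) with it, a ratio of 1.29 (1.17 to 1.43) and a log2 change of 0.36. PRAME was the 1 member kept in Huh-7, and it was neither at least 2-fold higher, as 0.428% of 14262 genes were, nor at least 2-fold lower, as 0.393% were. On FPKM as deposited, in tables made separately for Huh-7, the order of the lines was SK-hep1 over Huh-7 over Mahlavu with no overlap between libraries of different lines, which is the reverse of Mahlavu over SK-hep1 for MAGEA3.

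**Figure D5:**
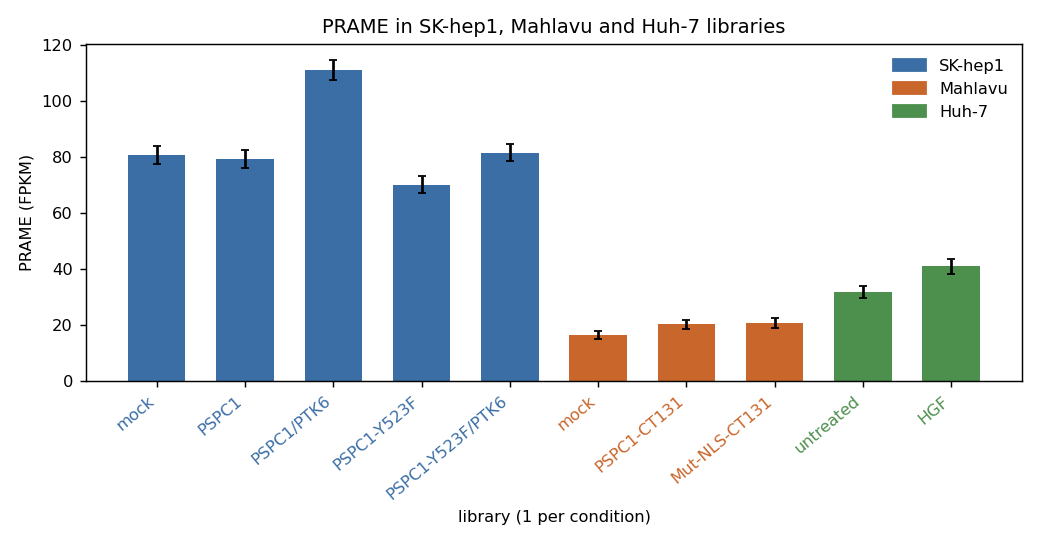
PRAME FPKM as deposited in the 10 libraries, with bars coloured by cell line and 95% Wilson intervals. The 5 SK-hep1 libraries are at 70.1 to 111 FPKM, the 3 Mahlavu libraries at 16.3 to 20.7 and the 2 Huh-7 libraries at 31.7 and 40.9.

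Of 16 further type I MAGE genes, 0 passed the filter in any SK-hep1 contrast with mock, 3 passed in each Mahlavu contrast and 2 in Huh-7, and 0 of these changed at least 2-fold on quantile-normalized FPKM + 1. MAGEB2 was at 9.97, 7.84 and 5.24 FPKM in Mahlavu mock, PSPC1-CT131 and Mut-NLS-CT131 and at 10.3 and 8.07 in Huh-7. MAGEA11, a coactivator of the androgen receptor, was at 6.52, 2.85 and 3.03 FPKM in the same Mahlavu libraries, with ratios to mock per library total of 0.436 (0.349 to 0.542) and 0.464 (0.372 to 0.576) beside log2 changes of -0.57 and -0.70 on the normalized scale. MAGEB17 was at 8.99, 8.69 and 14.6 FPKM. MAGEA8 was at 2.09 and 1.98 FPKM in Huh-7, where MAGEA3 was at 0. The type II MAGE genes, which most tissues express, kept 6 of 11 members in each SK-hep1 and Mahlavu contrast, with 0 changed at least 2-fold and medians of 0.26, 0.19, -0.13, 0.08, 0.18 and 0.31 (log2). Of all genes, 1.59% to 5.09% were called in a given direction in these contrasts, and 0.428% were higher and 0.393% lower in Huh-7. Counts of 0 among so few type I or type II genes are near these shares and are not read as stability. MAGED1, the highest of them, was at 146 to 261 FPKM in SK-hep1 and Mahlavu and at 0.0549 and 0.0295 FPKM in Huh-7.

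Of 50 further cancer-testis antigens, between 3 and 4 passed the filter in SK-hep1. At least 2-fold higher than mock were 1 with PSPC1 (CSAG3), 1 with PSPC1/PTK6 (CSAG3), 2 with PSPC1-Y523F (CSAG1 and CSAG3) and 0 with PSPC1-Y523F/PTK6. The shares of all genes were 3.38%, 5.09%, 2.83% and 3.44%. CSAG1, at 0.597 quantile-normalized FPKM in mock and 2.26 with PSPC1-Y523F, passed only through the transfectant, so nothing is read from its call. In Mahlavu 11 passed with PSPC1-CT131 and 10 with Mut-NLS-CT131, of which 3 were at least 2-fold lower in each, beside 3.16% and 3.26% of all genes (7.67% and 4.55% on FPKM as deposited), and 0 higher, beside 3.17% and 3.16%. CTAG2 was at 5.77, 0.928 and 0.180 FPKM in mock, PSPC1-CT131 and Mut-NLS-CT131. It was lower in both and above 1 FPKM in mock alone, so nothing is read from its calls. PAGE5 was at 13.8, 4.70 and 15.1 FPKM, low with PSPC1-CT131 as MAGEC2 was. ACTL8 at 7.34, 0.800 and 1.66 FPKM and CT83 at 8.12, 5.07 and 2.01 FPKM, both named after their values were seen, completed the lists. In the contrast of PSPC1-CT131 with mock, ACTL8 was also above 1 FPKM in mock alone. Nothing is read from that call, or from the counts of lower antigens that include such genes. The median of the kept antigens was -0.20 and 0.14 (log2), beside 0.01 and 0.00 over all genes.

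Of 22 genes of proteins that MAGE and PRAME proteins bind, 20 to 22 passed the filter in each contrast with mock or untreated cells. TRIM28, the ligase of MAGEA3, MAGEA6 and MAGEC2, was at 980, 1100, 742, 1699 and 1372 FPKM in SK-hep1 mock, with PSPC1, with PSPC1/PTK6, with PSPC1-Y523F and with PSPC1-Y523F/PTK6, 324 to 525 in Mahlavu and 497 to 521 in Huh-7. Calls against mock were 1 lower with PSPC1/PTK6 (EZH2, by -1.28, a partner of PRAME), 1 lower with PSPC1-CT131 (SMC5, -1.11) and 1 lower with Mut-NLS-CT131 (RARA, the receptor that PRAME was described to repress, -1.04). Single calls among 20 or 21 genes are near the shares of all genes that were lower, 3.32%, 3.16% and 3.26%.

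Genes that silence germ line promoters by DNA methylation and histone marks kept 25 of 27 members in each SK-hep1 and Mahlavu contrast. Their calls were 0 with PSPC1, PSPC1-Y523F, PSPC1-Y523F/PTK6 and PSPC1-CT131. With PSPC1/PTK6, UHRF1, which recruits DNMT1 to replicated DNA, and MBD3 were lower by -2.04 and -1.05 (log2), and with Mut-NLS-CT131 UHRF1, MBD3 and HDAC1 were lower by -1.78, -1.15 and -1.07. These were 2 and 3 of 25 genes, beside 3.32% and 3.26% of all genes. DNMT1, the maintenance methyltransferase, was at 272, 188, 139, 301 and 169 FPKM in SK-hep1 mock, with PSPC1, with PSPC1/PTK6, with PSPC1-Y523F and with PSPC1-Y523F/PTK6, so the transfectants with the lowest and the highest DNMT1 had MAGEA3 at 44.3 and 43.9 FPKM. The part of these genes in the MAGE levels was not tested. Of 17 ETS factors, 12 to 14 passed in each contrast, with calls of ETV4 lower with PSPC1 (-1.12) and higher with PSPC1-CT131 and Mut-NLS-CT131 (1.53 and 1.37), ELF1 and ELF3 lower with PSPC1-Y523F (-1.09 and -1.27) and FLI1 higher with PSPC1/PTK6 (1.17). These were 1 or 2 genes per contrast, beside 2.19% to 5.09% of all genes in the same directions.

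Of 29 neighbours on Xq28 and chromosome 22, 13 to 15 passed the filter. Against mock GABRA3 was higher with PSPC1-Y523F/PTK6 (2.74), and GABRE and BGN were lower with Mut-NLS-CT131 (-1.82 and -1.07). In these contrasts 3.44% of all genes were higher and 3.26% lower. GABRA3, at 0 in mock and 5.66 quantile-normalized FPKM with PSPC1-Y523F/PTK6, passed only through the transfectant, so nothing is read from its call. The genes nearest to MAGEA3 in pattern, by the root mean square difference of log2(FPKM + 1) about each gene's mean over the 8 SK-hep1 and Mahlavu libraries among 12902 genes, were PLXNA3 at 0.72, TYMP at 0.86, EFEMP1 at 0.94, GALM at 0.95 and FBLIM1 at 0.97. All 5 were lowest in SK-hep1 mock, PLXNA3 at 2.14 FPKM there and at 11.98 to 32.8 in the SK-hep1 transfectants. They were picked over these same libraries, so this follows from the choice. In Mahlavu, PLXNA3, TYMP and FBLIM1 were above mock with PSPC1-CT131 and with Mut-NLS-CT131 (FPKM as deposited). EFEMP1 and GALM were below it, as MAGEA3 was. Among those nearest to PRAME were C1QL4 at 0.13, PYGL at 0.16, ELK3 at 0.17 and OSBPL10 at 0.19. They were higher in every SK-hep1 than in every Mahlavu library, as PRAME was, which also follows from the choice.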

How the data were processed

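RNA-Seq of 10 libraries was analysed, 5 of SK-hep1, 3 of Mahlavu and 2 of Huh-7, each the only library of its condition. For SK-hep1 and Mahlavu the authors deposited a raw count and an FPKM for each gene, and the Huh-7 tables were used for their FPKM. The submitters' processing notes name TopHat2 2.0, HTSeq 0.6.1, edgeR and GRCh38.p12. The paper's methods name another build and rRNA depletion, while the labels describe poly-A selection with a kit that does not keep strand, so reads of overlapping antisense genes cannot be told apart. Dividing the count by the deposited FPKM and the library total gave 1 length per gene, which is not the length the tables list, and with these lengths the Huh-7 FPKM were whole reads (within 0.01 read) for 100% of the values, which gave totals of 16374128 and 15245935 reads.

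FPKM were quantile normalized over the 8 SK-hep1 and Mahlavu libraries and over the 2 Huh-7 libraries, and log2 differences of these values + 1 were taken between 2 libraries. A gene was kept where its quantile-normalized FPKM averaged 1 or more over both libraries, and a difference of at least 2-fold was counted. Levels are FPKM as deposited with 95% Wilson intervals, and ratios use reads per library total with exact conditional binomial intervals. A count of 0 was set at 3 reads to give a bound, which leaves out the counting error of the other library. PCR reads without molecular identifiers are not independent, so intervals cover counting error only. The members and lists were chosen with earlier results of these data known. Named genes are the members, PSPC1 and PTK6, up to 4 genes of highest mean FPKM and any gene changed at least 4-fold from each of 12 lists (218 of 220 list symbols matched), and the 5 genes nearest to MAGEA3 and to PRAME, of which 1 is not reported here. Other list genes, cluster neighbours and genes named from a count of 5 or fewer were chosen after their values were seen. Shared transcript windows came from GENCODE 29 and start windows from RefSeq (GRCh38.p14). Calculations were tested on simulated data. Python 3.11.15, numpy 2.4.6, pandas 2.3.3, scipy 1.17.1 and matplotlib 3.10.9 were used, with TMM factors from edgeR 4.0.16 in R 4.3.3. Alternatives were a pseudocount of 0.1 or 5, 4 other scalings of FPKM, TMM-scaled counts and 2 other filters, and, chosen after seeing the data, a filter on deposited FPKM, near-identical genes summed, and transcript GC and length removed.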

Additional observations from a re-analysis of the deposited data

Results flagged for a closer look

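MAGEA2 moved in opposite directions when PTK6 was added to PSPC1 and to PSPC1-Y523F. It was 2.33-fold higher with PSPC1/PTK6 than with PSPC1 (0.690 to 10.0, 11 against 4 reads). With 0 set at 3 reads, it was 6.91-fold lower with PSPC1-Y523F/PTK6 than with PSPC1-Y523F (0 against 18 reads). The exact interval puts that second difference at 5.06-fold or more. With 1 library per condition this difference between the pairs was not tested, and the interval of the first ratio includes 1. MAGEA2B, which shares nearly all of the MAGEA2 transcript, had 9 and 18 reads in the first pair and 18 and 0 in the second.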

How the results depend on the processing

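No paired analysis was possible because each condition has 1 library and the labels give no replicate numbers. The number of members at least 2-fold changed, over the 7 contrasts with mock or untreated cells and PSPC1-Y523F/PTK6 against PSPC1-Y523F, stayed within 1.5 times in 83 of 96 comparisons of a setting with the main value. With PSPC1 it was 1, and 2 with a pseudocount of 0.1 FPKM (MAGEA12 added) or with no filter (MAGEA6 added). With PSPC1/PTK6 it was 2, and 1 with a pseudocount of 5 FPKM, with a mean of at least 5 FPKM, or with MAGEA3 and MAGEA6 summed (chosen after seeing the data). With PSPC1-Y523F it was 1, and 2 with quantile normalization over all 10 libraries or no filter (MAGEA6 added) or with near-identical genes summed (MAGEA2 added). With PSPC1-Y523F/PTK6 it was 2, and 1 with MAGEA3 and MAGEA6 summed, since the sum is counted as 1 gene. With PSPC1-CT131 it was 1, and 0 with a pseudocount of 5 FPKM. With Mut-NLS-CT131 it was 0, and 1 with a pseudocount of 0.1 FPKM (MAGEC1) and 2 with FPKM rescaled to TPM (MAGEA10 and MAGEC1). For PSPC1-Y523F/PTK6 against PSPC1-Y523F it was 1, and 2 with no filter (MAGEA12 added, lower). Of 464 recomputed log2 changes of single members, 31 moved beyond the margin their reads allow on either side and 0 of those of at least 2-fold changed sign. A change with 0 reads in either library has no finite margin, so it could not be counted as moved. MAGEA12 with PSPC1/PTK6 was such a change, at -0.64 and, with a pseudocount of 0.1 FPKM, at -2.72. Changes of low genes such as MAGEA12 and MAGEA2 in SK-hep1 rest on 43 reads or fewer, and no setting can replace replicate libraries.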
